A study of Mus musculus with 14 samples.

Results

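Retinoic acid, the active form of vitamin A, is made and removed by a short chain of proteins, and the RNA of 9 mouse genes of that chain was followed here through the embryonic and adult small intestine. The genes were Aldh1a1, Aldh1a2, Aldh1a3, Aldh1a7, Rdh10, Lrat, Cyp26a1, Stra6 and Rbp4. They were taken by symbol, from probe sets annotated to exactly 1 gene, and all 9 were on the array, with 11 of the 20393 probe sets that stand for 12394 genes. Aldh1a3 had 3 probe sets and the other genes 1 each.

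RNA was measured on 14 mouse oligonucleotide arrays, and the series is about gene regulation between the crypts and villi of the small intestine. Villi are projections that absorptive enterocytes cover for the most part, and crypts are the pockets between them, with the stem, dividing and Paneth cells. Small intestinal crypts (replicates 12, 21 and 41) and villi (replicates V12, V41 and V275) came from C57BL/6 mice aged 12 weeks, with 3 arrays each. Endoderm (the lining, later the epithelium) and mesenchyme (its surround, later connective tissue and muscle) were dissected from fetal intestine at embryonic day 12 (E12) after collagenase digestion. The labels name no strain, genotype or treatment for the fetuses, and no genotype or treatment for the adults. Each E12 array was a pool of fetuses, so no value belongs to a single embryo. Pools of 10 to 12 fetuses gave 3 arrays per layer (replicates 2, 3 and 4), which form a table of 6 arrays on 1 platform. A pool of 35 fetuses gave 1 array per layer, and these stand with the adult arrays in a table of 8 arrays on another platform with the same probe sets.

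Values are log2 signals, so a difference of 1 is a 2-fold change, and values were compared only within a table. The 30th percentile of all values was 4.74 in the table of 6 arrays and 5.78 in the table of 8, and signals under it lie near background, where the method that made the values compresses differences. A gene was tested if at least 3 arrays of the fit exceeded that percentile, and was called at a limma adjusted p under 0.05. A gene bright in only 1 group of 3 arrays could thus pass through that group alone. Errors of means are SDs over arrays and errors of differences are SEs. Nothing in the labels shows that every array came from a separate culture or animal, so p-values measure only the spread between these samples. In tissue of many cells, fewer cells of a type and less RNA per cell cannot be told apart.

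The layers carried the markers of their labels. In the table of 6 arrays the mean log2 signal of 10 epithelial markers was 10.85 to 10.96 in endoderm and 5.85 to 6.31 in mesenchyme, and 10 of 10 were higher in endoderm. The mean of 10 stromal markers was 5.41 to 5.87 in endoderm and 10.59 to 10.69 in mesenchyme, and 10 of 10 were lower in endoderm, where Lum, Pdgfra, Pdgfrb and Twist1 lay under the 30th percentile. In adult crypts and villi the stromal mean was 5.91 to 6.16, and that of 8 enterocyte markers was 6.87 to 7.30 in crypts and 11.79 to 12.45 in villi.

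As background, retinol travels in blood bound to Rbp4, the retinol carrier, which itself rides on transthyretin (Ttr), and enters some cells through the receptor Stra6. Inside the cell Lrat esterifies retinol for storage, Rdh10 oxidizes it to retinal, and the retinal dehydrogenases Aldh1a1, Aldh1a2 and Aldh1a3 oxidize retinal to retinoic acid, which binds the nuclear receptors RAR and RXR. Aldh1a7 is a close rodent relative of Aldh1a1 for which little activity on retinal is known. Cyp26a1 breaks retinoic acid down, and its own gene is a classic target of the receptors. In the adult gut retinoic acid is known for its part in immune homing, and in the embryo for patterning along the body axis.

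RefSeq promoters (assembly GRCm38.p6) were matched for 7 of the 9 genes, with 12 start sites, and those of 3 dehydrogenase genes and of Cyp26a1 are shown because 3 of these genes moved together between the E12 layers and the fourth did not. Each run is the 250 bases before a start site, read towards the gene. Capitals in the first 3 mark CCAAT (the CCAAT box) and ATGCAAAT (the octamer), both searched on either strand, and capitals in the last mark a direct repeat of AGTTCA with 5 bases between, searched in the same way, which lies on the opposite strand. The motifs were chosen after these sequences had been read.
Aldh1a1, chr19:20601718-20601967, plus strand: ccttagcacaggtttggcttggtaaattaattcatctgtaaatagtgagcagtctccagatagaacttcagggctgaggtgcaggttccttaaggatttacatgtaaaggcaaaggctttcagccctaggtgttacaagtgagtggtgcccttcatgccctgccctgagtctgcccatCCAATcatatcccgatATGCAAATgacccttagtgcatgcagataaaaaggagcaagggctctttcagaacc
Aldh1a7, chr19:20727557-20727806, minus strand: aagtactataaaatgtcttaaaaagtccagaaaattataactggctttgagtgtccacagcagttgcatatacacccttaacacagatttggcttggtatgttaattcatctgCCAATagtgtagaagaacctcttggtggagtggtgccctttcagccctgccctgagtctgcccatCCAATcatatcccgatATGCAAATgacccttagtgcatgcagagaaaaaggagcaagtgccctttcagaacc
Aldh1a2, chr9:71215539-71215788, plus strand: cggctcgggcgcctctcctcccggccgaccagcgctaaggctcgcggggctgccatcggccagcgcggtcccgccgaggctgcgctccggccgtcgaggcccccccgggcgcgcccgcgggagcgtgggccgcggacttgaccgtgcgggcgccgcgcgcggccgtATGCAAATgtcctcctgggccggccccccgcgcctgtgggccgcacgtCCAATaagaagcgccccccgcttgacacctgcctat
Cyp26a1, chr19:37697558-37697807, plus strand: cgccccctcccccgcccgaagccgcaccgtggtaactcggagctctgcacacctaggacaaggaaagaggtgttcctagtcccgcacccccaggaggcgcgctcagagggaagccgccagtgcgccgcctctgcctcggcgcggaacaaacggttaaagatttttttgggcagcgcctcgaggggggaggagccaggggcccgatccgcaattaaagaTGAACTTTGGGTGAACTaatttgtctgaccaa

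Aldh1a1 and Aldh1a7 are neighbours on chromosome 19 with 0 listed genes between them, and their promoters were nearly the same close to the start. The last 100 bases were identical at 94 positions without gaps, and a global alignment of the 250 bases had 185 identical positions. No other pair of promoters from these genes shared more than 33 of the last 100 bases. In both, a CCAAT box lay 72 to 68 bases and an octamer 56 to 49 bases before the start, while Aldh1a7 had a further CCAAT box at 137 to 133. Aldh1a2 held the octamer at 84 to 77 and a CCAAT box at 36 to 32. RefSeq also lists an upstream start for Aldh1a1, whose 250 bases hold neither motif. Stra6, not shown, was also lower in endoderm at E12, and none of its listed starts has the octamer in its 250 bases. Of its runs only chr9:58128838-58129087 holds a CCAAT box. No promoter was matched for Rdh10, which was lower in endoderm too. A CCAAT box also lay 81 to 77 bases before the start of Lrat, which was not tested at E12. Another lay 162 to 158 bases before 1 start of Rbp4, on the opposite strand, and Rbp4 was higher in endoderm. Among 32851 promoters of this length, 33.8% hold CCAAT and 1.6% the octamer. The direct repeat of Cyp26a1, 32 to 16 bases before its start, is found in 7 of them, or 0.0213%, and AGTTCA alone in 11.8%.

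Between the E12 layers, Aldh1a1, Aldh1a2 and Rdh10, of the steps that make retinoic acid, were higher in mesenchyme. Rbp4, the plasma carrier of retinol, was higher in endoderm. In the limma fit 7 of the 9 genes were tested and 6 were called, 1 higher and 5 lower in endoderm, where 53.1% of the 9442 genes tested were called, 27.7% higher and 25.4% lower. Aldh1a1, Aldh1a2, Aldh1a7, Rdh10 and Stra6 were lower in endoderm and Rbp4 was higher. Cyp26a1 was not called, and Lrat and Aldh1a3 did not pass the filter on dim genes.

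**Figure D1:**
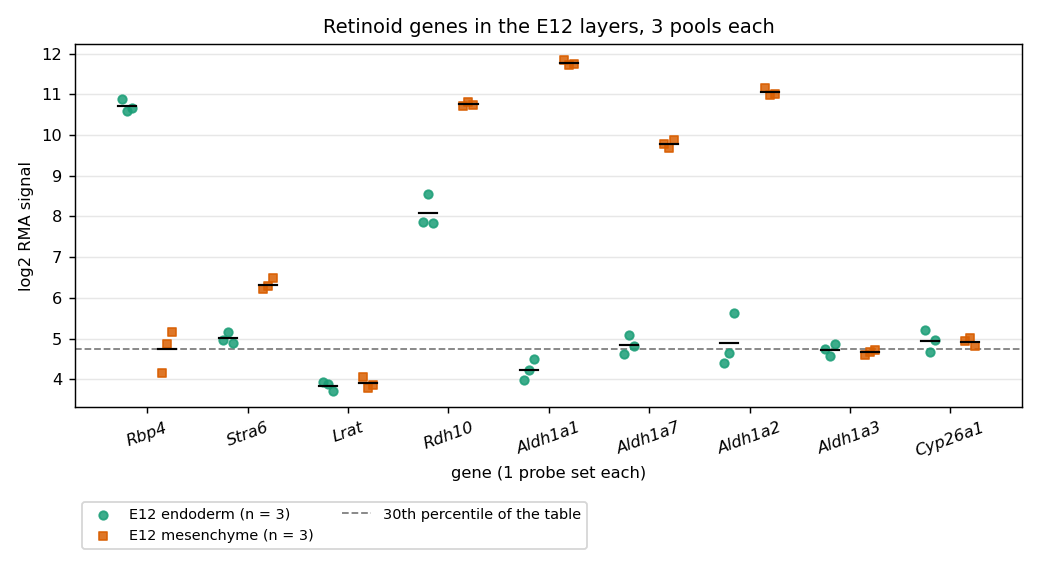
Log2 signal (vertical axis) of the 9 genes in the 3 E12 endoderm and 3 E12 mesenchyme pools of 10 to 12 fetuses, 1 point per array and a bar at each group mean; the dashed line is the table's 30th percentile, 4.74. Aldh1a1 lies at 11.73 or above in every mesenchyme pool and at 4.49 or below in every endoderm pool, and Rbp4 runs the other way.

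The retinol carrier Rbp4 read 10.88, 10.58 and 10.66 in endoderm replicates 2, 3 and 4, and 4.16, 4.88 and 5.17 in mesenchyme. Every endoderm pool was far above every mesenchyme pool, with 5.41 between the nearest arrays. The arrays of the 2 layers also did not overlap for 62% of all genes tested. Means of 10.71 ± 0.16 and 4.74 ± 0.52 (n = 3 each) gave a difference of 5.97 ± 0.23, or 62.7-fold, with a limma adjusted p of 1.9e-07. Mesenchyme lay at or near background for this gene, so the size of the fold is not exact. Of 7 liver bud markers, several of which other fetal endoderm also makes, 4 of 6 tested were higher in endoderm, led by the fetal plasma protein gene Afp at 9.86 against 4.02. The mean of that list was 7.20 to 7.44 in endoderm and 4.91 to 5.21 in mesenchyme, while albumin (Alb) was near background in both layers at 4.30 and 4.31. The part of these cells in the Rbp4 difference was not tested.

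Stra6, the receptor that takes up retinol from Rbp4, had 4.98, 5.17 and 4.90 in endoderm and 6.21, 6.30 and 6.48 in mesenchyme. The groups did not overlap and were 1.04 apart at their nearest. The difference was -1.31 ± 0.11, or 2.49-fold lower in endoderm, with a limma adjusted p of 2.0e-05. Lrat, the retinol esterifying enzyme, lay between 3.72 and 4.05 on all 6 arrays, under the 30th percentile, and its layers overlapped.

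Rdh10, which makes retinal from retinol, read 7.86, 8.55 and 7.83 in endoderm and 10.72, 10.82 and 10.74 in mesenchyme. Endoderm replicate 3 was the highest of its layer and still 2.17 below the lowest mesenchyme pool. With means of 8.08 ± 0.41 and 10.76 ± 0.05 the gene was lower in endoderm by 2.68 ± 0.18, or 6.41-fold (difference -2.68, limma adjusted p of 5.5e-06). Endoderm kept a signal of this gene well above the 30th percentile in all 3 pools.

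Aldh1a1 had the largest difference of all 9442 genes tested, in either direction. It read 3.98, 4.23 and 4.49 in endoderm and 11.83, 11.73 and 11.74 in mesenchyme. The difference was -7.53 ± 0.13, with a 95% interval of -7.84 to -7.23 and a limma adjusted p of 9.5e-09, which is 185-fold. All 3 endoderm values lay under the 30th percentile, so neither the fold nor the place of the gene among the largest is exact. Its neighbour Aldh1a7 followed at a smaller size, with 4.62, 5.09 and 4.82 in endoderm and 9.77, 9.68 and 9.88 in mesenchyme. That difference was -4.93 ± 0.13, or 30.6-fold, with a limma adjusted p of 2.7e-08 and rank 100 by size, with endoderm close to the 30th percentile of 4.74. Whether RNA of one gene binds the probes of the other was not tested.

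Aldh1a2, the main retinoic acid making enzyme of the embryo, read 4.40, 4.64 and 5.63 in endoderm and 11.16, 10.99 and 11.01 in mesenchyme. Endoderm replicate 4 stood above the other pools of its layer, and the same pool had the highest stromal marker mean of the endoderm arrays, 5.87 against 5.41 and 5.58. Whether carried-over stroma adds to that value was not tested. The difference was -6.16 ± 0.28, or 71.7-fold, with a limma adjusted p of 4.2e-07 and rank 18 by size. Endoderm replicates 2 and 3 lay under the 30th percentile, so this fold is not exact either. Aldh1a3 stayed between 3.74 and 4.86 over its 3 probe sets and all 6 arrays, at or under the 30th percentile in most, so no level of it was measured in either layer.

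Markers of cells other than stroma also differed between the layers, and their part in the dehydrogenase and Rdh10 differences was not tested. Smooth muscle markers averaged 11.19 to 11.32 in mesenchyme and 5.50 to 6.16 in endoderm, and 7 of 7 were lower in endoderm. Of 5 mesothelial markers, 3 were tested and 2 were lower in endoderm: Wt1 at 4.28 against 6.07 and Upk3b at 6.10 against 9.13. Endothelial (7 of 7), enteric neural (5 of 5) and myeloid and dendritic (5 of 5 tested) markers were also lower in endoderm. Of 4 erythroid markers tested 3 were lower, led by the embryonic globin gene Hba-x (difference -6.28).

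Cyp26a1, the enzyme that breaks retinoic acid down, read 5.22, 4.67 and 4.96 in endoderm and 4.95, 5.01 and 4.81 in mesenchyme. The layers overlapped, and the difference of 0.03 ± 0.14 had a 95% interval of -0.30 to 0.36 and a limma adjusted p of 0.89. All 6 values were close to the 30th percentile of the table, where a difference between layers may be compressed.

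The pair of 35-fetus pools, on the other platform and in no E12 test above, gave the same direction for the 6 called genes. Aldh1a1 read 5.67 in endoderm and 11.22 in mesenchyme, a difference of -5.55 or 46.9-fold. Aldh1a2 differed by -4.51 (5.23 against 9.74), Aldh1a7 by -3.67 (5.42 against 9.09) and Rdh10 by -1.90 (7.78 against 9.68). Rbp4 was higher in endoderm by 4.61 (9.93 against 5.33). Stra6 differed by -0.49 (5.82 against 6.31), short of 2-fold. Every one of these differences was smaller than in the other pools, and so it was for genes at large. Of the 1848 genes called at 2-fold or more in the table of 6 arrays, 99.8% kept their sign in the pair and 69.3% were also past 2-fold, with a median ratio of 0.717 between the 2 differences. The lower value of Aldh1a1, Aldh1a2, Aldh1a7 and Rbp4 was under this table's 30th percentile of 5.78, so their sizes in the pair are not exact. With 1 array per layer the pair carries no test.

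**Figure D2:**
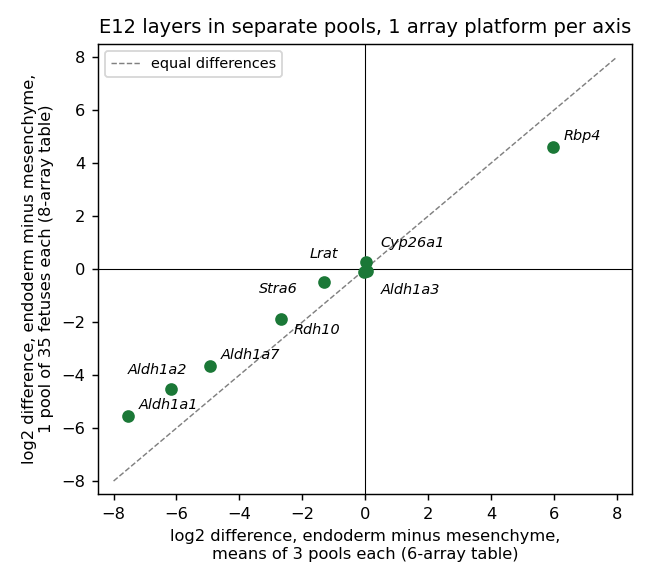
Endoderm minus mesenchyme log2 differences of the 9 genes in the 3 pools of each layer (horizontal axis) and in the pair of 35-fetus pools (vertical axis), 1 point per gene; the dashed line marks equal differences. Aldh1a1, Aldh1a2, Aldh1a7, Rdh10, Stra6 and Rbp4 keep their side of 0, each closer to 0 on the vertical axis.

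In the adult epithelium, Aldh1a1 and Aldh1a7 were higher in villi than in crypts, and the enzyme of the embryo, Aldh1a2, was near background in both. Of the 9 genes 7 were tested and 3 were called, 2 higher and 1 lower in villi, where 32.1% of 9962 genes were called, 16.9% higher and 15.2% lower. Without crypt replicate 21 the count over all genes fell from 3200 to 1990.

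Aldh1a1 read 6.04, 5.73 and 5.88 in crypt replicates 12, 21 and 41, and 10.17, 9.84 and 9.27 in villus replicates V12, V41 and V275. The groups were 3.23 apart at their nearest, and the crypts lay around the 30th percentile of 5.78. The means of 9.76 ± 0.45 and 5.89 ± 0.16 (n = 3 each) were 3.88 ± 0.23 apart, or 14.7-fold (limma adjusted p of 8.7e-05). Aldh1a7 had 5.64, 5.14 and 5.55 in crypts and 8.35, 8.11 and 7.89 in villi. Its difference was 2.67 ± 0.19, or 6.38-fold, with a limma adjusted p of 1.8e-04, and the groups did not overlap. All 3 crypt values lay under the 30th percentile, so this fold is not exact. The villus arrays took the same order for both genes, V12 above V41 above V275.

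Villi also held more T cell signal than crypts, and 6 of 6 T cell markers were higher there, with means of 6.58 to 6.80 in crypts and 8.93 to 10.03 in villi. Over villus replicates V12, V41 and V275 that mean was 8.93, 9.36 and 10.03. Of 8 enterocyte markers, 8 were higher in villi, with means of 11.79, 11.80 and 12.45 over the same replicates. Of 7 myeloid and dendritic markers tested, 4 were higher in villi, Itgae (1.80), Ptprc (1.78), Cd74 (0.91) and Tyrobp (0.70). Of the rest, 1 was lower, Csf1r (-0.57), and C1qa (0.12) and Itgax (0.32) were not called. The list mean was 7.01 to 7.11 in crypts and 7.57 to 7.81 in villi. The part of these cells in the rise of Aldh1a1 and Aldh1a7 was not tested. Of 6 stromal markers tested, 1 was called, as higher in villi.

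The other dehydrogenases showed no such pattern. Aldh1a2 stayed at 4.65, 4.64 and 4.60 in crypts and 4.70, 4.52 and 4.80 in villi, under the filter, and the groups overlapped. The brightest Aldh1a3 probe set of this table read 5.80 to 6.02 in crypts and 5.87 to 6.09 in villi, and its difference was 0.06 ± 0.14 (limma adjusted p of 0.77). Rdh10 was at 6.55, 6.68 and 6.87 in crypts and 6.92, 7.36 and 7.24 in villi, with the nearest arrays 0.04 apart. Its difference of 0.47 ± 0.17 (95% interval 0.08 to 0.86) missed the threshold, at a limma adjusted p of 0.07. It passed without villus replicate V12, at 0.60 (limma adjusted p of 0.037, with 0.037 to 0.18 over the alternatives).

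Rbp4 read 6.34, 6.39 and 6.11 in crypts and 5.45, 5.77 and 5.82 in villi. The groups did not overlap, which also held for 47.9% of all genes tested, and the difference of -0.60 ± 0.16 was 1.52-fold with a limma adjusted p of 0.024. The villus mean of 5.68 lay under the 30th percentile, so the size is not exact. The call was lost without crypt replicate 12 (limma adjusted p of 0.074), crypt replicate 21 (0.098) or villus replicate V12 (0.067), and the adjusted p ran from 0.011 to 0.098 over the alternatives. Stra6 was at 5.76 to 5.92 in crypts and 5.89 to 6.04 in villi, close to the 30th percentile, and its difference of 0.15 ± 0.13 (95% interval -0.15 to 0.46) was not called, at a limma adjusted p of 0.42.

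Lrat read 3.93, 3.70 and 3.95 in crypts and 4.48, 4.22 and 4.22 in villi. Every villus array was above every crypt array, but all 6 were far below the filter, so the difference of 0.45 was not tested. Cyp26a1 had 7.63, 7.67 and 7.21 in crypts and 7.29, 7.14 and 7.47 in villi, and the groups overlapped. Its difference of -0.20 ± 0.18, with a 95% interval of -0.61 to 0.21, had a limma adjusted p of 0.43.

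**Figure D3:**
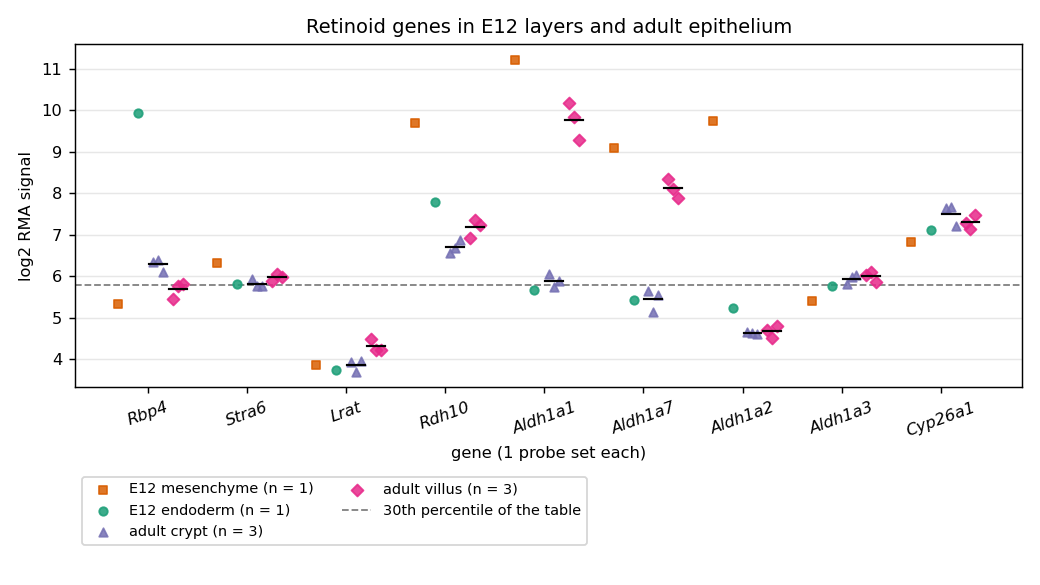
Log2 signal (vertical axis) of the 9 genes in the table of 8 arrays: 3 adult crypt and 3 adult villus arrays with bars at their means, and 1 array of each E12 layer from a 35-fetus pool; the dashed line is the table's 30th percentile, 5.78. Aldh1a1 and Aldh1a7 are high in E12 mesenchyme and adult villi and low in E12 endoderm and adult crypts, and Rbp4 is high only on the E12 endoderm array among these 8.

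Adult crypts and villi were each set against E12 endoderm, from which the epithelium arises, in 1 fit of the table of 8 arrays. Both comparisons share the same lone endoderm array, which is assumed to vary like the adult groups. Against crypts, 2 of 7 tested genes were called, both lower in crypts, where 23.3% of 10082 genes were called, 8.2% higher and 15.1% lower. Against villi 3 of 7 were called, 2 higher and 1 lower in villi, where 39.1% were called, 17% higher and 22.1% lower. Without crypt replicate 21 the count over all genes for crypts fell from 2348 to 1357.

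Rbp4 was lower in crypts and in villi than in E12 endoderm. The endoderm array read 9.93, and all 6 adult arrays were between 5.45 and 6.39. Crypts were 12.6-fold lower (difference -3.65 ± 0.23, limma adjusted p of 1.4e-04) and villi 19.1-fold lower (difference -4.25 ± 0.23, limma adjusted p of 3.2e-05). The villus mean lay under the 30th percentile, so that fold is not exact. Ttr, whose protein carries Rbp4 in plasma, moved the same way, at 10.29 in endoderm, 7.49 in crypts (limma adjusted p of 2.4e-04) and 7.59 in villi (1.0e-04). Rdh10 was at 7.78 in endoderm, above all 6 adult arrays. It was 2.11-fold lower in crypts (difference -1.08 ± 0.24, limma adjusted p of 0.017), a call lost without crypt replicate 21 (limma adjusted p of 0.056, with 0.011 to 0.056 over the alternatives). In villi its difference of -0.61 ± 0.24 was not called, at a limma adjusted p of 0.08.

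Aldh1a1 and Aldh1a7 separated villi, but not crypts, from E12 endoderm at the threshold. Against the endoderm values of 5.67 and 5.42, villi were 17-fold higher for Aldh1a1 (difference 4.09 ± 0.33, limma adjusted p of 1.3e-04) and 6.51-fold higher for Aldh1a7 (difference 2.70 ± 0.27, limma adjusted p of 2.6e-04). Both endoderm values lay under the 30th percentile of 5.78, so these folds are not exact. In crypts the differences were 0.21 ± 0.33 for Aldh1a1, with a 95% interval of -0.56 to 0.98 and a limma adjusted p of 0.66, and 0.03 ± 0.27 for Aldh1a7, with an interval of -0.60 to 0.66 and an adjusted p of 0.94. Crypts were near or under that percentile too, at means of 5.89 and 5.44, where a difference from endoderm may be compressed. Aldh1a7 passed the filter of this fit only through its villus and E12 mesenchyme arrays. T cell markers averaged 6.01 and enterocyte markers 6.67 on the endoderm array, both below their villus arrays, and their part in the villus differences was not tested. The direct test of the contrast is that of villi against crypts above. From high to low in this table, Aldh1a1 ran from E12 mesenchyme (11.22) through villi (9.27 to 10.17) to crypts (5.73 to 6.04) and E12 endoderm (5.67), and the last pair lay at or near background. The step from villi to E12 mesenchyme was not tested.

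The remaining genes gave no call against E12 endoderm. In data simulated with changes in 200 of 10082 genes, this fit called only 17% of 2-fold changes for crypts and 28% for villi. In the data 23.3% and 39.1% of genes were called, so the adjustment was stricter in the simulation and these rates may not carry over. Cyp26a1 was at 7.10 in endoderm, and its differences were 0.41 ± 0.25 in crypts (limma adjusted p of 0.26) and 0.21 ± 0.25 in villi (0.53). Stra6 differed by -0.01 ± 0.19 and 0.15 ± 0.19, and Aldh1a3 by 0.16 ± 0.20 and 0.22 ± 0.20. Aldh1a2, at 5.23 in endoderm and 4.52 to 4.80 in the adult arrays, was not tested, and its differences were -0.60 in crypts and -0.55 in villi. With no filter on dim genes these 2 differences would pass, at limma adjusted p of 0.0466 and 0.042. The mean of the stromal markers was 6.72 on this endoderm array and 5.91 to 6.16 on the adult arrays. Of 6 stromal markers tested, 1 was called in each comparison, Vim, as lower in the adult group. Rbp4 read 5.33 on the E12 mesenchyme array of this table and 9.93 on the endoderm array. The part of stroma in the Aldh1a2, Rdh10 and Rbp4 differences was not tested. Of 6 liver bud markers tested, 2 were lower in crypts and in villi than in endoderm, Ttr and Afp. In villi 1 was higher, Apoa1, at 14.12 against 9.68 in endoderm. Afp was at 8.81 in endoderm, 5.39 in crypts (limma adjusted p of 9.9e-04) and 6.03 in villi (9.0e-04). The mean of the list, which includes the high Apoa1 of villi, was 7.41 in endoderm, 6.66 to 6.75 in crypts and 7.30 to 7.43 in villi. The part of liver bud cells in the Rbp4 difference was not tested.

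**Figure D4:**
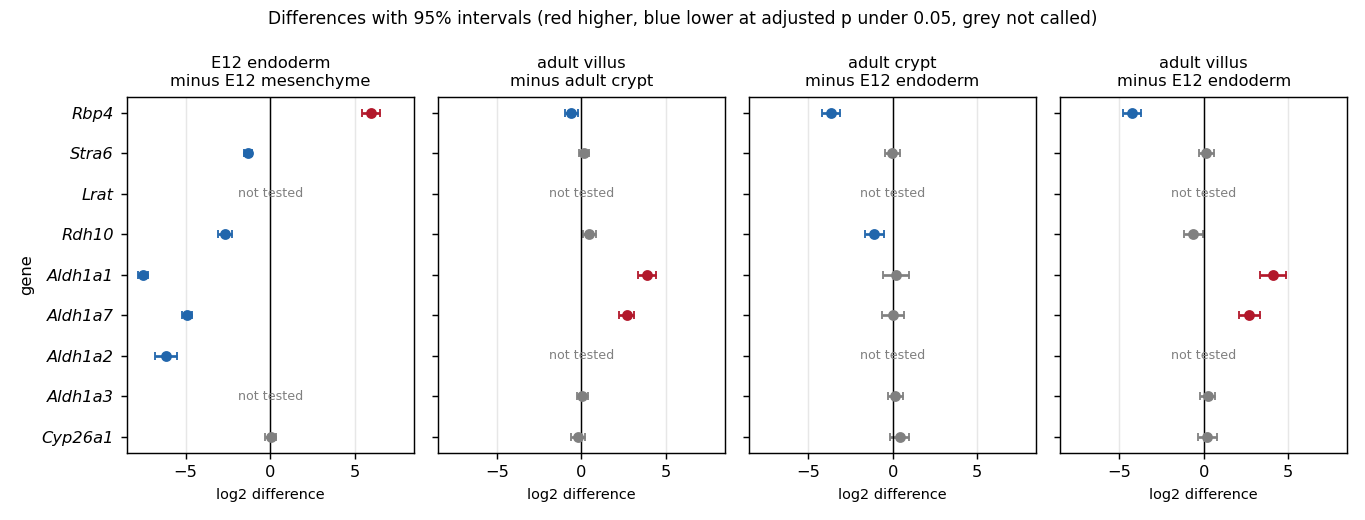
Log2 differences with 95% intervals (horizontal axis) of the 9 genes in the 4 comparisons, from the limma fits; red is higher and blue lower in the group named first at an adjusted p under 0.05, and grey is not called. Aldh1a1 reaches -7.53 between the E12 layers and 3.88 between villi and crypts, and intervals of Cyp26a1 span 0 in all 4 comparisons.

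The other genes of the pathway were read from 6 lists drawn up with earlier results of these data known. The counts are read beside the shares of all genes called. Between the E12 layers, where 53.1% of all genes were called, 27.7% higher and 25.4% lower, 1 of 5 tested receptor genes was called: Rarb, itself a classic retinoic acid target, was lower in endoderm at 6.95 against 8.20 (difference -1.25, limma adjusted p of 0.0028). The count was 2 without endoderm replicate 2. Of 4 binding and transport genes 2 were higher and 1 lower in endoderm, with Ttr at 11.40 against 7.19 and the cellular retinoic acid binding protein gene Crabp1 at 4.08 against 5.87, under the 30th percentile in endoderm. Of 11 other retinol and retinal enzyme genes 5 were higher and 1 lower, with a median difference of 0.23 beside 0.03 over all genes. The largest were the aldo-keto reductase gene Akr1b8 (-1.28) and the retinol dehydrogenase gene Rdh11 (1.03). Of 4 carotenoid and retinyl ester uptake genes 1 was called, the fatty acid and carotenoid receptor gene Cd36 (-2.20), which was under the 30th percentile in endoderm.

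Other aldehyde dehydrogenase genes were called in both directions between the E12 layers. Of 12 tested, 6 were higher and 3 lower in endoderm, beside 27.7% and 25.4% of all genes, with a median of 0.22 beside 0.03. The mitochondrial Aldh1b1 was higher by 1.97 (limma adjusted p of 2.6e-06) and the fatty aldehyde dehydrogenase gene Aldh3a2 by 1.49 (limma adjusted p of 3.8e-06).

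Of 15 genes known to respond to retinoic acid, 10 were lower and 2 higher in endoderm, with a median of -1.25, where 25.4% of all genes were lower and 27.7% higher. The transcription factor genes Meis2 (5.51 against 10.81, limma adjusted p of 2.4e-08) and Hoxa5 (5.35 against 10.62, limma adjusted p of 1.6e-08) differed most. The 3 not called were Crabp2 (-0.42), Dhrs3 (0.07) and Tgm2 (0.18). Many of this list are Hox and Meis genes, which are also known as position and mesenchyme genes, and the stromal markers moved the same way in 10 of 10. Their part in this count was not tested.

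In villi against crypts, Rdh9 and Rbp2 had the largest differences among the listed genes. Rbp2, the retinol binding protein of enterocytes, stood at 12.53 in villi and 7.57 in crypts, 31.1-fold apart (limma adjusted p of 1.2e-05), and was called among 3 binding genes tested. Of 16 other retinol and retinal enzyme genes 7 were called, each of them higher in villi, with a median of 0.59 beside -0.00 over all genes, of which 16.9% were higher and 15.2% lower. Rdh9 read 9.68 against 4.29 (42-fold, limma adjusted p of 3.5e-06). Its crypt mean lay under the 30th percentile, so neither its fold nor its place among the largest is exact. The next was Rdh7 at 8.76 against 6.01 (limma adjusted p of 0.029). Leaving out a library took that count to 3 without crypt replicate 21 or villus replicate V275, and to 4 without villus replicate V12.

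The counts that follow stand beside 32.1% of all genes called in villi against crypts, 16.9% higher and 15.2% lower. Of 4 uptake genes, the carotenoid cleaving oxygenases Bco2 (2.23, limma adjusted p of 0.0014) and Bco1 (1.60, limma adjusted p of 0.011) were higher in villi, and 1 of them was called without crypt replicate 21. Of 12 other aldehyde dehydrogenase genes 6 were higher and 3 lower in villi, with a median of 0.54, and 5 were called in all without crypt replicate 12. The folate enzyme gene Aldh1l1 was higher by 2.03 and Aldh6a1, of valine breakdown, lower by 1.83 (difference -1.83), with its villus mean of 5.20 under the 30th percentile. Receptor genes were called in 2 of 6, Rxra (0.57, limma adjusted p of 0.02) and Rara (0.45, limma adjusted p of 0.04), but no fit that left out an array called more than 1.

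Of 10 responsive genes 3 were higher and 1 lower in villi, beside 16.9% and 15.2% of all genes, with a median of 0.11, and 1 was called without crypt replicate 21. Rai14 was higher by 2.01 (limma adjusted p of 5.6e-04) and the nuclear corepressor gene Nrip1 by 1.30 (limma adjusted p of 0.015), while 6 were not called.

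**Figure D5:**
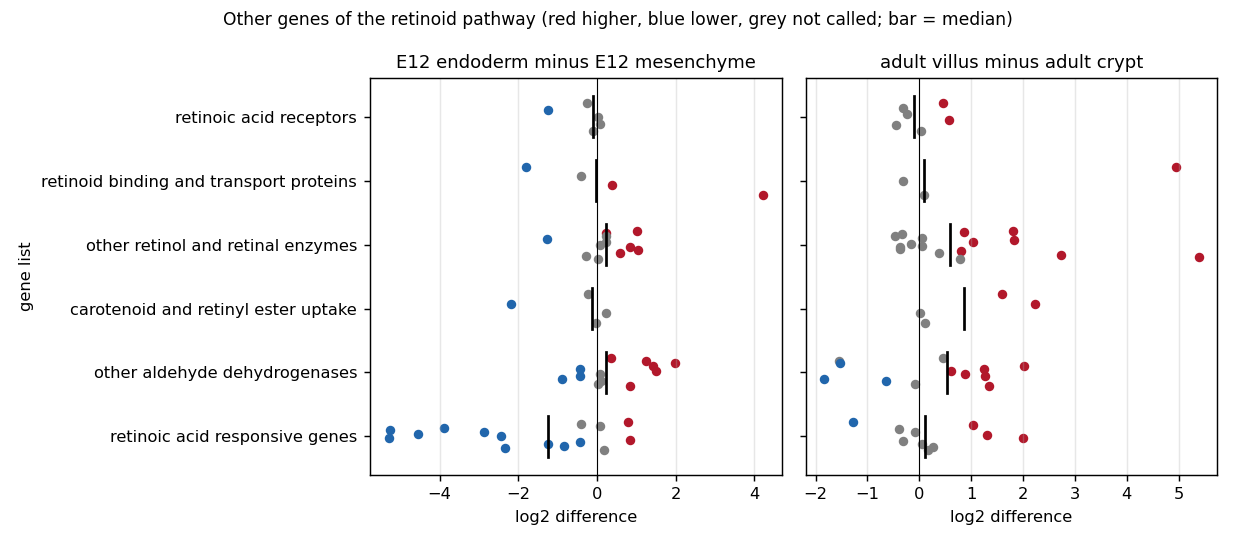
Log2 differences (horizontal axis) of the tested genes of 6 retinoid lists between the E12 layers and between villi and crypts, 1 point per gene, red higher, blue lower, grey not called, with a bar at each list's median. Responsive genes have a median of -1.25 between the E12 layers, and Rdh9 and Rbp2 lie farthest right between villi and crypts.

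In crypts against E12 endoderm, where 8.2% of all genes were higher and 15.1% lower, 1 of 6 receptor genes was lower (Rarb, difference -0.97), 1 of 3 binding genes was lower (Ttr, difference -2.79), and 2 of 16 enzyme genes were higher and 2 lower. Dgat1, an acyltransferase gene whose product can esterify retinol, was the largest of these, at 11.11 in crypts and 8.11 in endoderm, and Adh5 followed at 8.07 against 10.51. Both called uptake genes were lower in crypts: the scavenger receptor gene Scarb1 by 1.58 (difference -1.58) and the lipase gene Lpl by 1.48 (difference -1.48). Of 12 dehydrogenase genes 2 were higher and 1 lower, with Aldh7a1 at 6.68 against 9.46 and Aldh1b1 at 11.21 against 8.75. Of 10 responsive genes 1 was higher, the caudal homeobox gene Cdx1 (3.61), and 3 were lower, of which Rai14 (-2.22) was the largest. Several of these small counts changed by over 1.5 times without crypt replicate 21, which ended the call of Rarb and took the enzyme count to 2 and the responsive count to 2. The enzyme count was also 2 without crypt replicate 12, villus replicate V12 or villus replicate V275.

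In villi against E12 endoderm, where 17% of all genes were higher and 22.1% lower, 1 of 6 receptor genes was higher (Rxra, 0.96) and 1 lower (Rarb, -1.28, with villi under the 30th percentile), and 1 of 3 binding genes was higher (Rbp2, 5.69) and 1 lower (Ttr, -2.70). Of 16 enzyme genes 6 were higher and 2 lower, 8 called in all beside 39.1% of all genes. Rdh9 (5.90) and Dgat1 (4.83) were the largest, but Rdh9 lay at 3.78 in endoderm, under the 30th percentile, so its size is not exact, and 4 of the list were called in all without crypt replicate 21 or villus replicate V12. Of 4 uptake genes Bco2 (2.47) and Bco1 (2.08, with endoderm under the 30th percentile) were higher and Scarb1 and Lpl lower. Of 12 dehydrogenase genes 6 were higher and 1 lower, with Aldh7a1 (-3.43) and Aldh1l1 (3.36) the largest. Of 10 responsive genes Cdx1 (2.34) was higher and 2 were lower, Rarb and Meis2 (-0.93).

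Over all arrays, the profile most like that of Aldh1a1 was that of Aldh1a7, and the reverse. Likeness was taken as the lower of Pearson's r over the 8 arrays of 1 table and the 6 of the other, among 8702 genes tested in both, and it is a description of points that share tables, pools and the large gap between layers. The pair had a likeness of 0.998, and the next genes were Klhl22 (0.968) and Antxr2 (0.963) for Aldh1a1, and Antxr2 (0.961) and Klhl22 (0.959) for Aldh1a7. Rdh10 was most like Cpe (0.982), Dab2 (0.976) and Tspan9 (0.974), and Stra6 most like Cacna1g (0.965), Sh3gl3 (0.964) and Hic1 (0.962). Rbp4 was most like Alpl (0.970), Ttr (0.965) and Hebp1 (0.962). For Cyp26a1 no gene reached 0.9, and Kifc2 (0.889), Lfng (0.858) and Nodal (0.844) came closest.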

How the data were processed

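Total RNA, extracted on columns with DNase treatment per the labels' protocols, was hybridized to 14 arrays of 1 colour. The deposited values are log2 signals that the authors made with RMA, per the submitters' processing notes. RMA corrects background, normalizes across arrays and summarises each probe set. Its version is not given in the sources used here, and neither is a genome build. Arrays give no read depth, and their number limits the precision.

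Each of 12394 genes stood for itself through its brightest probe set, by the mean of a table's arrays (22690 probe sets, of which 20393 have 1 symbol and 691 several). Genes over the 30th percentile in at least 3 arrays of a fit were tested with limma 3.58.1 in R 4.3.3 (lmFit and eBayes). Benjamini-Hochberg adjustment ran over all genes, and genes were called under 0.05. In simulated data the fits called 100% of 2-fold changes between the E12 layers and 74% between villi and crypts. Against E12 endoderm they called 17% for crypts and 28% for villi, and 91% and 95% of 4-fold changes. False calls made up 3.6% to 7.9% of simulated calls. Villi and crypts, and the E12 layers of the table of 6 arrays, were fitted alone. Comparisons with E12 endoderm came from 1 fit of 8 arrays in 4 groups. All 9 genes were named, and of each list the 2 largest called differences. Further genes of a list are named where a count of 5 or fewer needed them. The genes and lists were chosen with earlier results of these data known.

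Same-numbered E12 samples deviated together across genes (r of 0.21, 0.23 and 0.11 for 2, 3 and 4), although endoderm 3 and mesenchyme 4 also reached 0.13. The numbers in the titles were therefore taken to pair them in an alternative fit with a replicate block. The reported fits used no pairing. Alternatives were quantile normalization, other filters and probe set rules, a trended prior, the replicate block, other sets of arrays and each array left out. Promoters come from RefSeq, aligned with Biopython 1.88. Probe cross-hybridization was not examined.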

Additional observations from a re-analysis of the deposited data

How the results depend on the processing

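No difference of the 9 genes changed direction while called. Of 528 differences of these genes under the alternatives, 516 kept their side of the threshold and, where called, their direction. The 516 include differences that were not tested and so could not cross the threshold. Lrat, for example, had a test in only 1 setting of each comparison. Differences that were not called could change sign, as for Aldh1a7 in crypts against E12 endoderm (-0.24 to 0.18). Counts stayed within 1.5 times for 107 of 112 over these genes or all genes, and for 291 of 336 in the pathway lists. Aldh1a1, Aldh1a2, Aldh1a7 and Rbp4 between the E12 layers, and Aldh1a1 and Aldh1a7 in villi against crypts, were called in 16 of 16 settings each, the reported one included. Testing each probe set on its own, an alternative chosen after seeing the data, was among them. Aldh1a1, Aldh1a2, Aldh1a7 and Rbp4 have 1 probe set each, so settings that changed only the probe set choice reused their values. Those settings could hardly alter these calls. Between crypts and E12 endoderm, 1 of the 9 genes was called in place of 2 with the filter at the 50th percentile, which leaves Rbp4 untested. The count was also 1 without probe sets of cross-hybridizing types, which leaves out the only probe set of Rdh10. The filter at the 50th percentile also left Stra6 between the E12 layers, and Rbp4 elsewhere in the table of 8 arrays, untested. The trended prior called Rdh10 in villi against crypts, at a limma adjusted p of 0.0498, and the cause was not tested.

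Leaving out 1 array at a time gave 4260 to 5242 genes called between the E12 layers, 1990 to 3151 between villi and crypts, 1357 to 2977 between crypts and E12 endoderm and 3314 to 3949 between villi and E12 endoderm. The counts of these genes were 6 to 6, 2 to 3, 1 to 2 and 3 to 3. With the replicate block the E12 layers gave 6 of these genes and 5089 of all genes called, and the block changed no call of the 9 genes. The adult numbers 12 and 41 are 2 shared numbers, whose deviations correlated at 0.16 and 0.07, and the block gave 3 of these genes called between villi and crypts, with 3180 over all genes. The block in the fit of 8 arrays gave 2 and 3 called against E12 endoderm, with 1785 and 3389 over all genes.

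Signals near background limit what can be read for Lrat, Aldh1a3, Stra6, Aldh1a2 in E12 endoderm and the adult, Cyp26a1 at E12, Aldh1a1 and Aldh1a7 in crypts and E12 endoderm, and Rbp4 in villi and E12 mesenchyme. The 2 comparisons with E12 endoderm rest on 1 endoderm array.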

Other observations

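Cyp26a1 held a different place in the 2 tables, by the share of an array's probe sets that lie below it. In the pools of 10 to 12 fetuses it lay at percentile 29.7 to 38.5 of its array, while in the 35-fetus pools it lay at percentile 51.2 in mesenchyme and 57.3 in endoderm. In the adult arrays it was at percentile 60.0 to 70.0. The tables come from different platforms and were normalized apart, and no test was made across them.

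The 3 probe sets of Aldh1a3 gave no common pattern. Between the E12 layers the dimmest was higher in mesenchyme (4.16 ± 0.20, n = 3) than in endoderm (3.78 ± 0.05, n = 3), and the others differed by -0.17 and 0.05 (endoderm minus mesenchyme). In the 35-fetus pair these probe sets differed, in the same order, by -0.03, 0.38 and -0.06. None passed the filter on dim genes at E12.

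Among the genes with replicates in the adult, Cd36, a receptor for fatty acids and carotenoids, was at 6.14 in villi and 4.08 in crypts but was not tested, as it passed the 30th percentile in too few arrays. Rdh16 was at 5.98 and 4.97 and was likewise not tested. Both were picked for mention after their values were seen.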
